A study of Mus musculus with 22 samples.

Results

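The 40 imprinted genes described here lie outside the Prader-Willi region of mouse chromosome 7, and were found in the deposited gene table by their symbols, as 40 of 41456 gene IDs. Genomic imprinting leaves only the maternal or only the paternal copy of a gene active, so that its dosage is set by which parent a chromosome came from. The marks are DNA methylation at control regions, laid down in the egg or the sperm, and the zinc finger protein ZFP57 protects many of them in the embryo. Imprinted genes lie in clusters, often with a non-coding RNA expressed from the allele opposite to that of its protein-coding neighbours, and several of them act on growth, feeding and body temperature through the hypothalamus. By the allele that mouse textbooks give as expressed, 20 are paternally expressed, 17 are maternally expressed and 3 (Grb10, Gnas, Blcap) use both alleles, depending on tissue or transcript. Dlk1 and Rtl1 each stand on a second ID with the same counts in every library, so the 40 genes fill 42 lines; each was counted once, from the line on a reference chromosome, and whether the counting split or doubled its reads cannot be told, so their levels may be off by that factor.

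The series holds 22 hypothalamus RNA libraries of C57BL/6J mice. PWScrm+/p− mutant mice lack the paternal Snord116 small nucleolar RNA genes, and PWScrm+/p+ mice served as controls. Libraries were made at ZT0, the start of the light period (3 mutant, 3 control), at ZT6 (4 mutant, 4 control) and at the same hour following sleep deprivation for 6 h, called SD (4 mutant, 4 control). The labels give 3 to 5 mice per condition, name no sex or age and do not say whether each library is 1 mouse, so p-values measure the spread between these libraries. Library totals were 3120328 to 46965594 counts in 21 libraries, while mutant ZT6 replicate 2 held 7348 counts and is given apart.

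The 3 mutant ZT0 libraries and mutant ZT6 replicate 3 stood apart from the labelled tissue. Levels are given in CPM, counts per 1000000 scaled by TMM factors, a correction for library composition. In these 4 libraries 6 neuron genes summed to 3.49 to 30.6 CPM, against 1911 to 3311 CPM in the other 17 libraries. The sum of 6 hypothalamic peptide genes was 0.884 to 3.93 CPM against 718 to 1976 CPM, that of 4 myelin genes 5.25 to 16.1 CPM against 2133 to 5774 CPM, and that of 4 astrocyte genes 2.10 to 4.65 CPM against 1442 to 2053 CPM. The sum of 6 fibroblast and meninges genes, led by collagens, was 10690 to 28710 CPM against 90.2 to 335 CPM. Of these fibroblast and meninges genes, Lum had 1.83 to 1305 CPM against 0.646 to 8.34 CPM, with overlap. The members of the microglia and endothelium lists did not move together. Of the microglia genes, Tmem119 had 78.6 to 223.5 CPM against 4.43 to 14.3 CPM, while Cx3cr1 had 0.281 to 1.66 CPM against 25.1 to 63.7 CPM, Csf1r 3.39 to 10.1 CPM against 33.3 to 73.9 CPM and P2ry12 0 against 6.73 to 26.5 CPM. Of the endothelium genes, Flt1 had 50.7 to 141.4 CPM against 19.7 to 62.7 CPM, while Cldn5 had 0 to 0.174 CPM against 8.73 to 29.8 CPM and Pecam1 2.29 to 10.6 CPM against 7.43 to 44.97 CPM. The sum of 3 haemoglobin genes was 0.201 to 0.611 CPM against 225 to 1658 CPM, that of 3 choroid plexus genes 0 to 3.94 CPM against 6.94 to 28.5 CPM and that of 2 ependyma genes 0 to 0.930 CPM against 14.7 to 82.4 CPM. Of the choroid plexus genes, Folr1 had 0 to 3.94 CPM against 0.234 to 6.73 CPM, with overlap. The 4 are called collagen-rich and the 17 hypothalamic below. The collagen-rich libraries hold every mutant library of ZT0, so in that comparison genotype and library content cannot be told apart. Over 69 Snord116 genes the mutant libraries held 0 counts except 4 in mutant ZT6 replicate 1, while controls held 3 to 5463 counts except 0 in control ZT6 replicate 4 and control SD replicate 4. Snhg14, the host transcript of these small RNAs, was at 226.2 and 176.5 CPM in these 2 libraries, against 193.5 to 371.8 CPM in hypothalamic mutant libraries and 377.8 to 1751 CPM in the other control libraries. Both measures were below those of the other control libraries. Below, these 2 are therefore called the libraries labelled control, and results are also given without them. By the index numbers in the library titles, both belong to the same run as mutant ZT6 replicate 4 and mutant SD replicate 4. Those mutant libraries also held 0 Snord116 counts, with Snhg14 at 202.5 and 193.5 CPM. Whether the low values follow genotype or run was not tested. Some other controls held few Snord116 counts too, with 3 in control ZT0 replicate 3 and 4 in control SD replicate 1. In these bulk samples, fewer cells of a type and less RNA per cell cannot be told apart.

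The sequences below belong to imprinted genes whose levels differed between mutant and control libraries at ZT0. Only genes with a single promoter window were eligible. Of the genes raised more than H13, H19 and Cdkn1c had no window, and Igf2, Mest and Grb10 had several. Among genes with a single promoter window, the first 3 are the promoters of those most reduced in mutant libraries and the next 3 of those most raised; each window runs from 250 bases before to 50 bases after the RefSeq start (GRCm38.p6), 5′ to 3′ on the gene's strand, with CpG dinucleotides, the sites of DNA methylation, in capitals.
Rasgrf1, chr9:89909525-89909824, plus strand: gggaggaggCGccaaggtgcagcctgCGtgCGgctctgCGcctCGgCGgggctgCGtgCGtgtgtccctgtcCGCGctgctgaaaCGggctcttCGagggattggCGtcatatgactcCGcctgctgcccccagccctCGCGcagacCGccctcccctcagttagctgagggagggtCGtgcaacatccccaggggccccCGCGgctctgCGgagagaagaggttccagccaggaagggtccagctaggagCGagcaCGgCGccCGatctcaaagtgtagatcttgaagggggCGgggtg
Nap1l5, chr6:58907077-58907376, minus strand: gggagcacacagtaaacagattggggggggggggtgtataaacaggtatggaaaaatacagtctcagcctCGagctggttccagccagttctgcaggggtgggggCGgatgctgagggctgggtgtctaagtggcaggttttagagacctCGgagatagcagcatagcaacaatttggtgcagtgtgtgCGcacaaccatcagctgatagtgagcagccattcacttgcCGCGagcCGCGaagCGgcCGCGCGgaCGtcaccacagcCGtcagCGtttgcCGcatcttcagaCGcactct
Nnat, chr2:157559828-157560127, plus strand: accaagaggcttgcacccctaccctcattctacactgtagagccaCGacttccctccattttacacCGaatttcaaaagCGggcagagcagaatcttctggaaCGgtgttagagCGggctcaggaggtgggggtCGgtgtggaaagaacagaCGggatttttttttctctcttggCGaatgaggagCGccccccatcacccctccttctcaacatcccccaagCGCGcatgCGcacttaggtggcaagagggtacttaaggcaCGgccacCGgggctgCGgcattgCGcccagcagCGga
Slc22a18, chr7:143473539-143473838, plus strand: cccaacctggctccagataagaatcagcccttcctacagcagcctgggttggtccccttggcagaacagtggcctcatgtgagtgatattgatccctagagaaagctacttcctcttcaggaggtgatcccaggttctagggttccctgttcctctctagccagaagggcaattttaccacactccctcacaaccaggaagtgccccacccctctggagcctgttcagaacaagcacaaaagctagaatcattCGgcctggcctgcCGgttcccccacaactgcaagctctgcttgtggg
Igf2r, chr17:12769657-12769956, minus strand: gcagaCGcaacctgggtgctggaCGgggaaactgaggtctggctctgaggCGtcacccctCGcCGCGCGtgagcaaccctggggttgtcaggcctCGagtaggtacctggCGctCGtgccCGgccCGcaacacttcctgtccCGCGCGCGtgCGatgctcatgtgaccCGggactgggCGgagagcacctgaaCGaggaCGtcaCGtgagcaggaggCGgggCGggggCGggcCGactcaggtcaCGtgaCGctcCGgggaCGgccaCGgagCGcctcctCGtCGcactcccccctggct
H13, chr2:152669211-152669510, plus strand: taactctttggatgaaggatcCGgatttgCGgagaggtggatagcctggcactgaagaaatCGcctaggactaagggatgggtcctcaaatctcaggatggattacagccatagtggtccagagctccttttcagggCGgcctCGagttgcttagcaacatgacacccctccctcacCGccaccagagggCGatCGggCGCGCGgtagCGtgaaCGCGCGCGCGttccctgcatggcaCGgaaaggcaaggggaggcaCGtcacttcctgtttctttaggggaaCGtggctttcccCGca
H19, whose RNA separated the collagen-rich from the hypothalamic libraries most, carries the hairpin of miR-675, inside exon 1 or 2 of 3 annotated H19 transcripts. Its 2 mature products are shown with the seed (bases 2 to 8) in capitals.
mmu-miR-675-5p, chr7:142577112-142577133, minus strand: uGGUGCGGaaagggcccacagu
mmu-miR-675-3p, chr7:142577078-142577099, minus strand: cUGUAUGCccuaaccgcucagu

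The 2 seeds differ. The separate gene line of Mir675 held 0 counts in every library. RefSeq windows were found for 32 of the 40 genes, with 47 windows in all. Their median CpG count was 17, against 7 over the 32851 windows of all genes. Among the windows printed, the CpG count was 26 in Rasgrf1, 17 in Nap1l5, 17 in Nnat, 2 in Slc22a18, 34 in Igf2r and 21 in H13. The motif TGCCGC, which ZFP57 binds when methylated, was searched on both strands (GCGGCA on the other), and holds a CpG itself. With windows of a gene that overlap counted once, it was present in 12 of 45 windows (26.7%), against 11.5% of 30804 such windows of all genes. It occurred at 2 positions in the Nap1l5 window and at 1 in that of Nnat, and was not in the other 4 windows printed. By call at ZT0, 4 of 13 windows of higher genes (30.8%), 6 of 17 windows of lower genes (35.3%) and 2 of 12 windows of genes not called (16.7%) held it.

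Between the collagen-rich and the hypothalamic libraries, the imprinted genes fell into opposite sets. H19, Cdkn1c, Igf2r, Igf2, Grb10, H13 and Sgce were higher in each of the 4 collagen-rich libraries than in any of the 17, and 16 genes, led by Rasgrf1, Nap1l5 and Calcr, were lower in each of the 4. That makes 23 of 40 genes without overlap of ranges, all among the 37 that passed the low-count filter. The share was 40.8% of the 20828 genes that passed it (16.1% higher, 24.6% lower). The median log2 ratio of the medians was −0.84 over the 37 imprinted genes that passed the low-count filter and −0.29 over all genes. With CPM by library total alone the median of all genes was −0.61 and 5 genes stayed higher and 17 lower, with H13 and Sgce then overlapping and Dlk1 lower without overlap. With RLE factors 7 were higher and 15 lower, with Rtl1 overlapping. Because these libraries were set apart by measured values, this is a description, with no test.

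**Figure D1:**
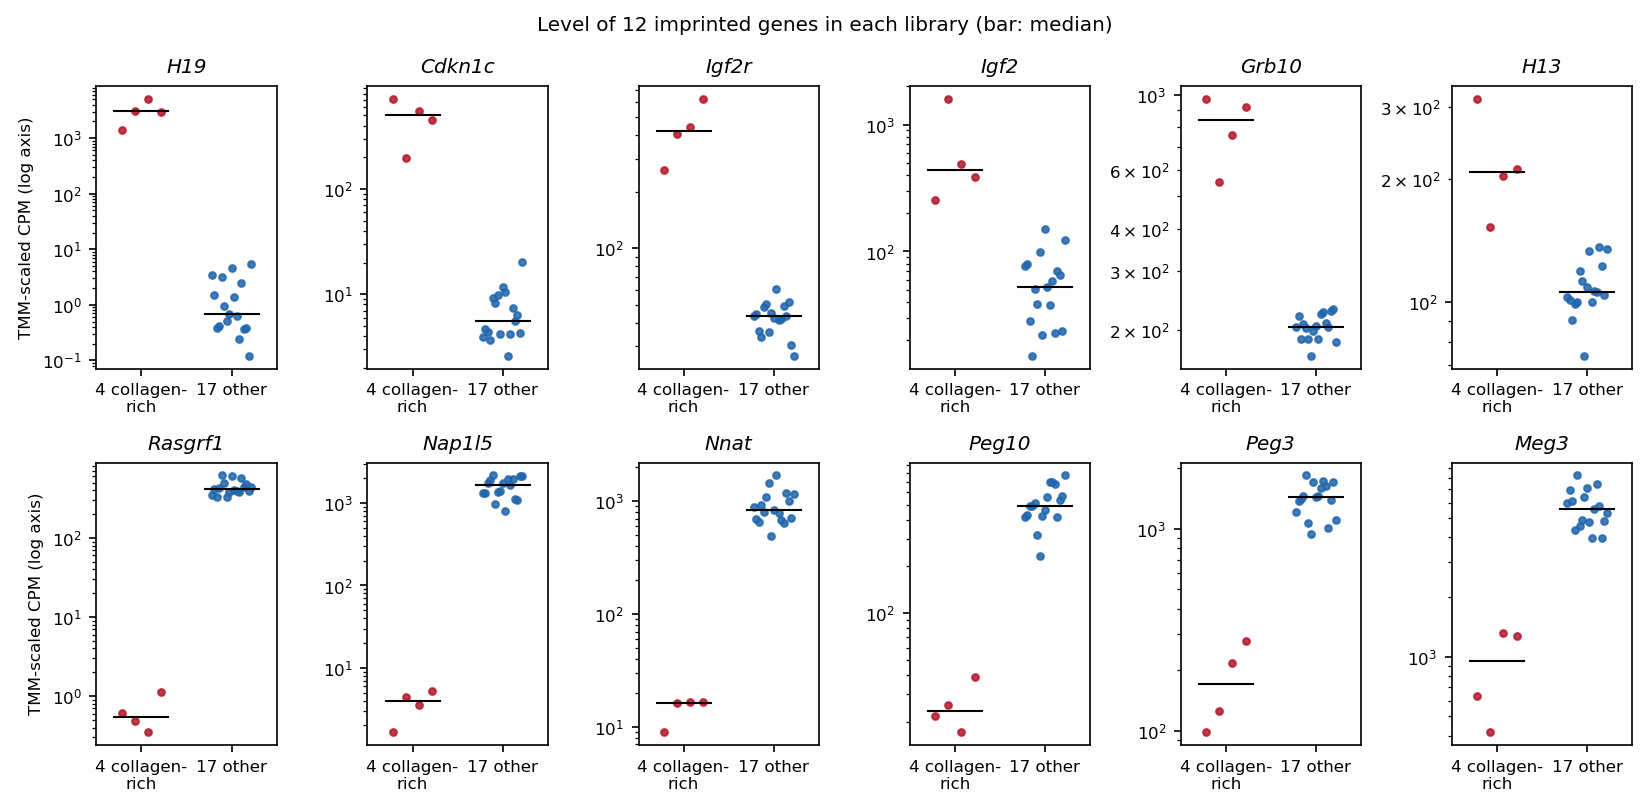
TMM-scaled CPM (log axis) of 12 imprinted genes in each of the 4 collagen-rich libraries (red, left) and the 17 hypothalamic libraries (blue, right), with a bar at the median. The top row shows genes higher in all 4 (H19 at 1420 to 5091 CPM against 0.122 to 5.51 CPM), and the bottom row genes lower in all 4 (Rasgrf1 at 0.350 to 1.13 CPM against 326 to 618 CPM).

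At ZT0, 26 of the 37 imprinted genes that could be tested were called between 3 mutant and 3 control libraries (edgeR's quasi-likelihood test, Benjamini-Hochberg adjusted p under 0.05 over 21746 genes). Of these, 10 were higher and 16 lower in mutant libraries. Over all genes the test called 53.9% (22.7% higher, 31.3% lower), so a call there is common and 26 of 37 is read against that share. The median log2 fold change was −0.63 over the 37 and −0.30 over all genes. Paternally expressed genes numbered 3 higher, 9 lower and 7 not called with 1 not tested, maternally expressed genes 6 higher, 6 lower and 3 not called with 2 not tested, and those of both alleles 1 of each. The fourth collagen-rich library, mutant ZT6 replicate 3, took no part in that fit, but was grouped with the mutant ZT0 libraries by measured values. Its levels are therefore no independent check, and the matching share over all genes was not computed. In that library all 16 lower genes lay below the range of the 17 hypothalamic libraries. Of the 10 higher genes 8 lay above it, while Mest (27.4 CPM) and Commd1 (46.8 CPM) lay within. The 11 genes not called were spread there over all 3 places, 4 above, 3 within and 4 below.

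**Figure D2:**
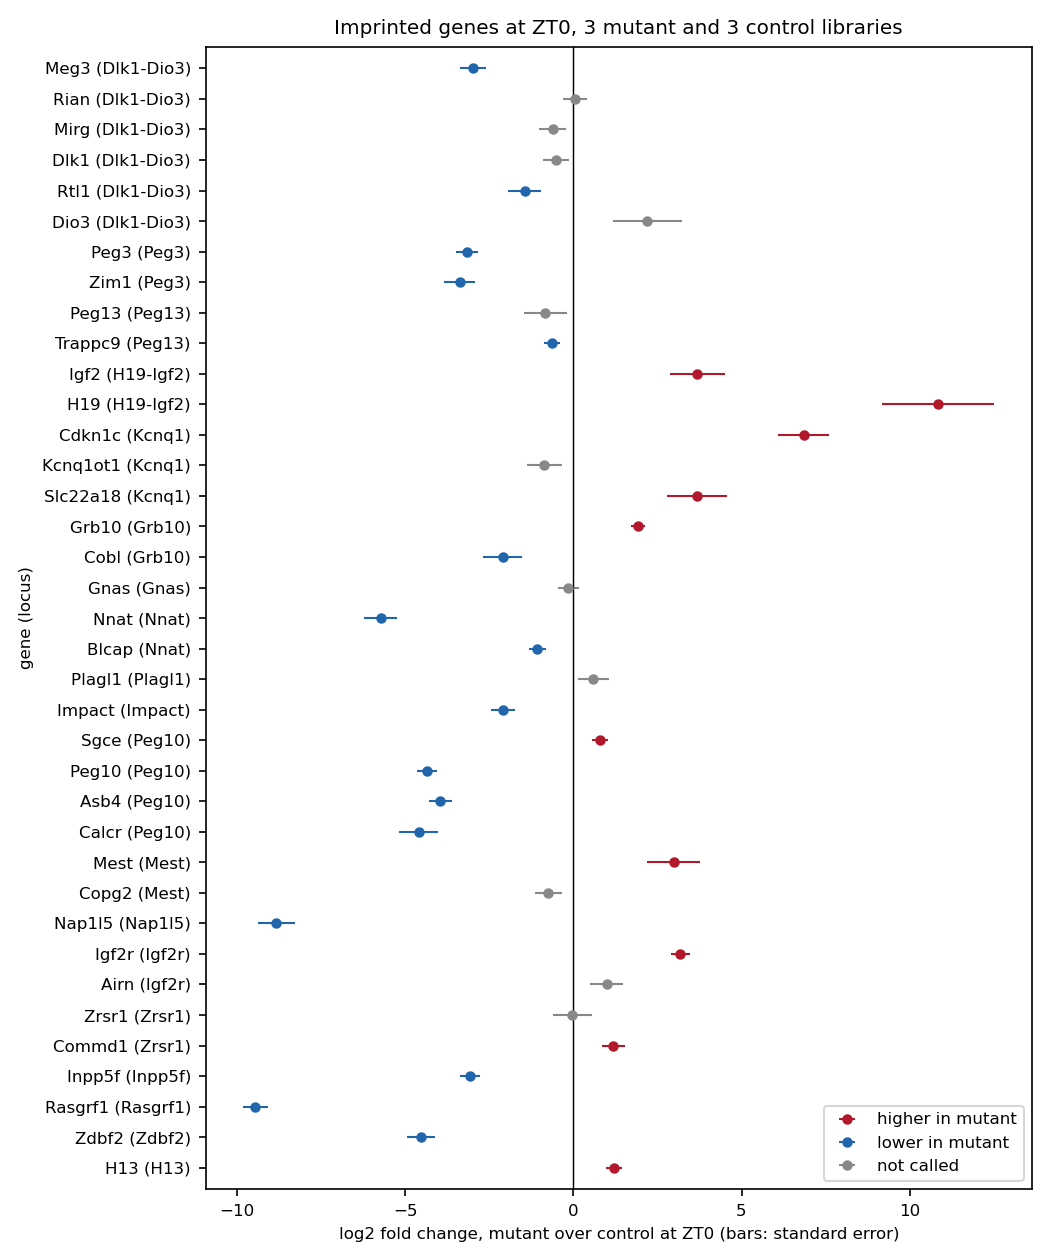
Log2 fold change (mutant over control at ZT0, 3 libraries each) of the 37 imprinted genes tested, by locus from top to bottom, with bars of 1 standard error. Red points are the 10 genes called higher, blue points the 16 called lower and grey points the 11 not called; H19 lies at 10.85 and Rasgrf1 at −9.46.

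The H19 and Igf2 pair on distal chromosome 7 shares enhancers, H19 being a maternally expressed long non-coding RNA and Igf2 a paternally expressed fetal growth factor. H19 (chr7:142575529-142578143, minus strand, GRCm38) had 1420, 3127 and 5091 CPM in mutant ZT0 libraries and 2968 CPM in mutant ZT6 replicate 3. Control ZT0 libraries had 3.40, 1.51 and 0.3795 CPM, and the 17 hypothalamic libraries 0.122, 0.694 and 5.51 CPM as lowest, median and highest. No hypothalamic library came near the collagen-rich ones. The log2 fold change at ZT0 was 10.85 ± 1.67 (SE, adjusted p = 2.27e-05, edgeR), or 11.74 without control replicate 1. Igf2 (chr7:142650766-142666816, minus strand) had 257, 1596 and 487 CPM in mutant ZT0 libraries and 389 CPM in mutant ZT6 replicate 3, against 77.2, 79.7 and 28.2 CPM in control ZT0 libraries. The ranges do not overlap, and the value of mutant replicate 2 was the highest of all libraries. Its log2 fold change was 3.68 ± 0.82 (SE, adjusted p = 8.96e-04, edgeR), or 2.58 without that library. Both partners were thus higher, H19 by more. The ratio of H19 to Igf2 counts was 1.96 to 10.5 in the 4 collagen-rich libraries and 0.00410 to 0.110 in the 17.

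Igf2r (chr17:12682406-12769664, minus strand), the maternally expressed receptor that clears IGF2 from the cell surface, had 260, 407 and 441 CPM in mutant ZT0 libraries and 626 CPM in mutant ZT6 replicate 3. Control ZT0 libraries had 43.4, 44.3 and 36.1 CPM, and the 17 hypothalamic libraries 26.7 to 60.5 CPM. Every collagen-rich library was above every hypothalamic one, with a log2 fold change at ZT0 of 3.18 ± 0.28 (SE, adjusted p = 2.63e-08, edgeR). Airn, the paternal non-coding RNA that runs against Igf2r and silences it in cis, had 4.10, 4.62 and 6.995 CPM in mutant ZT0 libraries against 1.74, 2.37 and 3.74 CPM in control ZT0 libraries. It was not called (log2 fold change 1.00 ± 0.49, SE, adjusted p = 0.098, edgeR). Igf2 per Igf2r was 0.621 to 3.92 in the 4 collagen-rich libraries and 0.448 to 4.60 in the 17, so these ranges overlap, while Igf2r per Airn was 63.1 to 88.1 against 9.66 to 48.6.

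In the Kcnq1 cluster the maternally expressed growth inhibitor Cdkn1c, which encodes the cyclin-dependent kinase inhibitor p57, was higher in mutant ZT0 libraries. Cdkn1c (chr7:143458339-143461050, minus strand) had 718, 197 and 552 CPM in mutant ZT0 libraries and 447 CPM in mutant ZT6 replicate 3. It had 3.89, 4.64 and 4.39 CPM in control ZT0 libraries, and no hypothalamic library exceeded 20.3 CPM. Its log2 fold change was 6.84 ± 0.77 (SE, adjusted p = 4.76e-07, edgeR). Slc22a18, an organic cation transporter gene, had 10.1, 1.93 and 2.45 CPM against 0.306, 0.719 and 0.136 CPM. The levels were low and replicate 1 stood highest: its log2 fold change of 3.68 ± 0.90 (SE, adjusted p = 0.00206, edgeR) was 2.51 without that library and 4.47 without control replicate 2. Kcnq1ot1, the paternal non-coding RNA that silences the cluster, had 116, 80.8 and 220 CPM in mutant ZT0 libraries and 231, 187 and 347 CPM in control ZT0 libraries, and was not called (log2 fold change −0.86 ± 0.52, SE, adjusted p = 0.175, edgeR). Cdkn1c per Kcnq1ot1 was 2.43 to 6.21 in the collagen-rich libraries and 0.00585 to 0.141 in the hypothalamic ones. Phlda2 and Ascl2, best known from the placenta, did not pass the low-count filter, with at most 0.0612 and 0.683 CPM in any of the 21 libraries.

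Grb10 (chr11:11930508-12038683, minus strand) encodes an adaptor that dampens insulin and IGF1 receptor signals and is expressed from the maternal allele in most tissues and from the paternal allele in neurons. It had 973, 552 and 758 CPM in mutant ZT0 libraries and 923 CPM in mutant ZT6 replicate 3. Control ZT0 libraries had 204, 221 and 188 CPM, and the 17 hypothalamic libraries 168 to 231 CPM. The groups were far apart and the hypothalamic levels close together, with a log2 fold change of 1.91 ± 0.20 (SE, adjusted p = 2.62e-07, edgeR). Its neighbour Cobl, an actin nucleator, went the other way, with 24.6, 3.05 and 1.40 CPM against 44.3, 46.6 and 39.7 CPM. Here mutant replicate 1 lay nearest to the controls, and the log2 fold change of −2.10 ± 0.58 (SE, adjusted p = 0.00500, edgeR) became −4.09 without it.

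Of the other genes called higher, H13 (signal peptide peptidase, chr2:152669461-152708670, plus strand) had 314, 152 and 204 CPM in mutant ZT0 libraries and 102.7, 101.1 and 90.3 CPM in control ZT0 libraries (log2 fold change 1.21 ± 0.23, SE, adjusted p = 2.33e-04, edgeR). Sgce (epsilon-sarcoglycan, a muscle and brain membrane protein) had 44.7, 78.2 and 39.5 CPM against 33.4, 28.8 and 33.8 CPM, and its call was lost without mutant replicate 2 (log2 fold change 0.38, adjusted p = 0.115, edgeR). Commd1, a copper metabolism gene, had 57.0, 31.7 and 35.0 CPM against 20.2, 15.7 and 19.1 CPM, and lost its call without mutant replicate 1 (log2 fold change 0.89, adjusted p = 0.0557, edgeR). Mest, a paternally expressed gene of mesoderm and growing fat, was uneven among the collagen-rich libraries. It had 295, 270 and 30.4 CPM in mutant ZT0 libraries and 27.4 CPM in mutant ZT6 replicate 3, against 28.0, 19.1 and 29.3 CPM in control ZT0 libraries. Only 2 of the 4 collagen-rich libraries thus lay above the hypothalamic range, which reached 130.5 CPM. Its log2 fold change was 2.98 ± 0.79 (SE, adjusted p = 0.00373, edgeR).

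Rasgrf1, Nap1l5 and Nnat had the 3 lowest fold changes. Rasgrf1 (chr9:89909908-90026977, plus strand), a paternally expressed calcium-dependent exchange factor of neurons, had 0.611, 0.482 and 0.350 CPM in mutant ZT0 libraries and 1.13 CPM in mutant ZT6 replicate 3, or 7, 12, 1 and 17 counts. Control ZT0 libraries had 351, 421 and 326 CPM. The groups were farther apart than those of any other lower gene, with a log2 fold change of −9.46 ± 0.36 (SE, adjusted p = 1.25e-12, edgeR). Nap1l5, a paternally expressed nucleosome assembly gene of brain, had 1.66, 4.38 and 3.50 CPM against 1340, 1333 and 1732 CPM (log2 fold change −8.83 ± 0.54, SE, adjusted p = 1.86e-10, edgeR). Nnat, a paternally expressed small membrane protein of neurons and neuroendocrine cells, had 8.98, 16.2 and 16.8 CPM against 894, 699 and 653 CPM (log2 fold change −5.73 ± 0.48, SE, adjusted p = 1.08e-08, edgeR). Blcap, which contains Nnat in an intron, had 99.8, 69.8 and 61.6 CPM against 169.5, 174.3 and 149.6 CPM and so differed far less (log2 fold change −1.07 ± 0.25, SE, adjusted p = 0.00135, edgeR). The strand setting of the counting is not given in the sources used here, so reads of exons that overlap on opposite strands, as over 912 bases in Mest and Copg2 and 412 bases in Zrsr1 and Commd1 in GENCODE M21, cannot be told apart. Nnat and Blcap share 0 exon bases there. Nnat per Blcap was 0.0900 to 0.273 in the collagen-rich and 3.16 to 9.92 in the hypothalamic libraries.

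On proximal chromosome 6, Sgce and Peg10 start next to each other on opposite strands and are both paternally expressed, and were called in opposite directions. Peg10, a retrotransposon-derived gene known from the placenta, had 21.6, 25.5 and 17.1 CPM in mutant ZT0 libraries and 38.8 CPM in mutant ZT6 replicate 3, against 418, 427 and 491 CPM in control ZT0 libraries. Its log2 fold change was −4.35 ± 0.31 (SE, adjusted p = 1.24e-09, edgeR), against 0.78 ± 0.23 for Sgce. Peg10 per Sgce was 0.326 to 0.631 in the collagen-rich and 7.53 to 23.1 in the hypothalamic libraries. The maternally expressed neighbours were lower too. Asb4, a ubiquitin ligase subunit of hypothalamic neurons, had 1.40, 4.86 and 4.55 CPM against 62.0, 45.3 and 60.2 CPM (log2 fold change −3.96 ± 0.34, SE, adjusted p = 1.58e-08, edgeR). Calcr, the calcitonin receptor, which binds amylin together with accessory proteins, had 0.349, 2.49 and 0 CPM against 30.3, 30.7 and 32.6 CPM. Mutant replicate 3 held 0 of its counts, and a count of 0 allows up to 3 counts, or 0.961 CPM in that library. The log2 fold change of −4.60 ± 0.58 (SE, adjusted p = 2.10e-06, edgeR) was −6.86 without mutant replicate 2, which held 62 of the 66 counts.

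**Figure D3:**
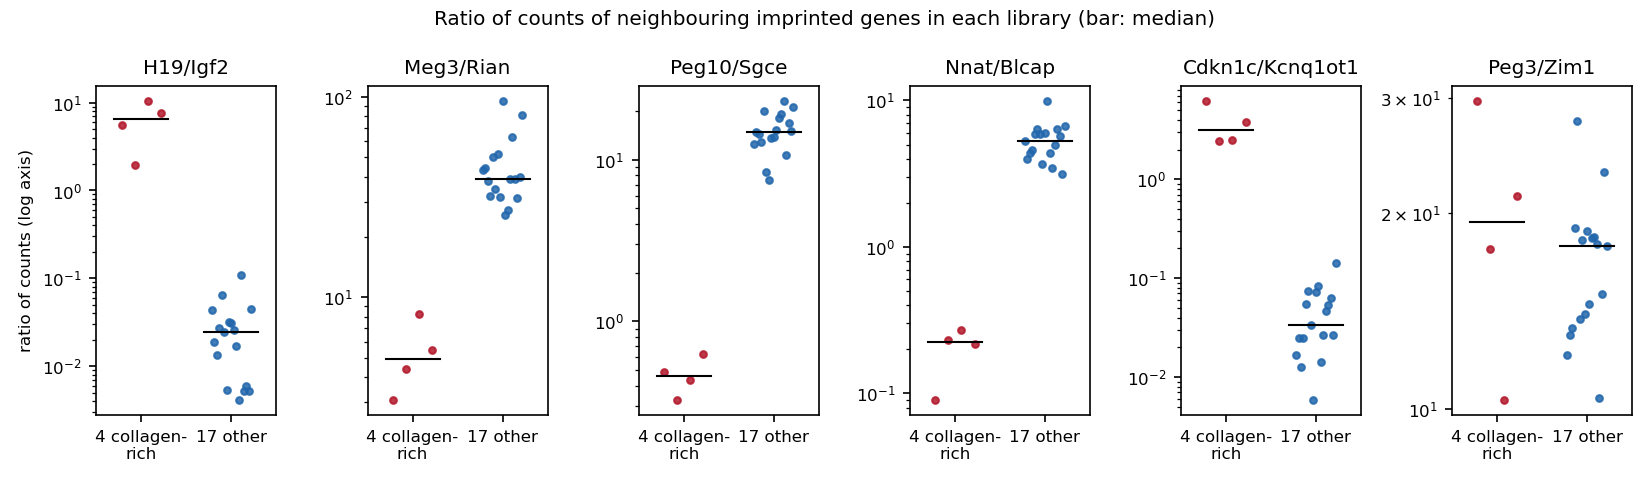
Ratio of counts (log axis) of 6 pairs of imprinted genes of the same cluster in the 4 collagen-rich libraries (red, left) and the 17 hypothalamic libraries (blue, right), with a bar at the median. The ranges are apart for H19/Igf2, Meg3/Rian, Peg10/Sgce, Nnat/Blcap and Cdkn1c/Kcnq1ot1, while those of Peg3/Zim1 overlap (10.3 to 29.7 and 10.4 to 27.6). Of the pairs not shown, Meg3/Mirg and Igf2r/Airn had ranges apart. Those of Rian/Mirg, Igf2/Igf2r, Meg3/Dlk1, Mest/Copg2, Peg13/Trappc9 and Zrsr1/Commd1 overlap. Mest/Copg2 was 0.5357 to 5.165 in the collagen-rich and 0.1949 to 1.303 in the hypothalamic libraries. The share of neighbouring pairs with ranges apart was not computed over all genes.

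Peg3 and Zim1, zinc finger genes expressed from opposite alleles of proximal chromosome 7, were both lower in mutant ZT0 libraries. Peg3 had 98.3, 124.8 and 216.5 CPM in mutant ZT0 libraries and 277 CPM in mutant ZT6 replicate 3, against 1208, 1378 and 1396 CPM in control ZT0 libraries (log2 fold change −3.16 ± 0.33, SE, adjusted p = 1.80e-07, edgeR). Zim1 had 3.31, 7.11 and 20.98 CPM and 13.1 CPM, against 99.9, 106.0 and 105.1 CPM (log2 fold change −3.38 ± 0.47, SE, adjusted p = 7.49e-06, edgeR), or −4.27 without mutant replicate 3. The paternal gene exceeded the maternal one 10.3 to 29.7 times in the collagen-rich and 10.4 to 27.6 times in the hypothalamic libraries. Usp29, which shares the Peg3 start region on the other strand, did not pass the filter: it had 10.5 CPM (416 counts) in mutant SD replicate 1, 1 count in mutant ZT0 replicate 3 and 0 in the other libraries.

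In the Dlk1-Dio3 domain of chromosome 12 the maternal non-coding RNAs Meg3, Rian and Mirg are read in the same direction and host microRNAs and snoRNAs. Meg3 stood in another proportion to Rian and Mirg in the collagen-rich libraries. Meg3 (chr12:109541001-109571726, plus strand) had 632, 416 and 1323 CPM in mutant ZT0 libraries and 1276 CPM in mutant ZT6 replicate 3, against 5970, 6919 and 6088 CPM in control ZT0 libraries (log2 fold change −2.98 ± 0.40, SE, adjusted p = 3.96e-06, edgeR), or −3.58 without mutant replicate 3. Rian had 206.3, 94.9 and 159.8 CPM against 137.7, 157.1 and 159.9 CPM, and Mirg had 36.7, 13.7 and 45.8 CPM against 52.3, 47.4 and 47.6 CPM. Neither was called (log2 fold change 0.04 ± 0.36 and −0.61 ± 0.40, SE). Meg3 per Rian was 3.07 to 8.28 in the collagen-rich and 25.7 to 95.4 in the hypothalamic libraries, and Meg3 per Mirg 17.2 to 33.4 against 67.8 to 164.3. Rian per Mirg was 3.49 to 6.91 against 0.838 to 4.18, with overlap. Meg3 per Dlk1 was 5.205 to 49.3 against 22.04 to 70.6, also with overlap. Of the paternal genes, Dlk1, a Notch-related membrane protein that restrains fat cell formation, had 121.5, 65.3 and 26.9 CPM in mutant ZT0 libraries against 107.8, 112.8 and 87.9 CPM. It was not called (log2 fold change −0.50 ± 0.39, SE, adjusted p = 0.282, edgeR), and was −1.11 with an adjusted p of 0.0205 without mutant replicate 1. Rtl1, a retrotransposon-derived placental gene, had 6.37, 1.04 and 10.5 CPM against 16.1, 13.2 and 16.4 CPM (log2 fold change −1.44 ± 0.49, SE, adjusted p = 0.0186, edgeR), or −0.90 without mutant replicate 2 and −2.06 without mutant replicate 3. Dio3, the deiodinase that inactivates thyroid hormone, had 0.436, 0.402 and 3.85 CPM against 0.337, 0.359 and 0.190 CPM and was not called (log2 fold change 2.20 ± 1.03, SE, adjusted p = 0.0791, edgeR).

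The remaining lower genes were Zdbf2, a paternally expressed zinc finger gene of the growth axis (7.07, 7.67 and 2.45 CPM in mutant ZT0 libraries against 133.7, 128.2 and 161.6 CPM in control ZT0 libraries), Inpp5f, an inositol phosphatase (22.3, 28.6 and 15.4 CPM against 169.7, 191.8 and 208.1 CPM), Impact, an inhibitor of the GCN2 kinase (206, 151 and 168 CPM against 663, 744 and 850 CPM), and Trappc9, a vesicle trafficking gene (44.3, 27.4 and 39.5 CPM against 59.7, 65.1 and 48.6 CPM). Their log2 fold changes were −4.52 ± 0.42, −3.07 ± 0.29, −2.09 ± 0.36 and −0.63 ± 0.24 in that order (SE). The groups of each do not overlap. Trappc9 lost its call without mutant replicate 2, control replicate 1 or control replicate 2 (adjusted p = 0.125, 0.0667 and 0.117, edgeR). Among genes not called, Gnas, which encodes the stimulatory G protein alpha subunit and is maternally biased in some endocrine tissues, had 1044, 794 and 924 CPM against 981, 1266 and 859 CPM (log2 fold change −0.15 ± 0.32, SE, adjusted p = 0.705, edgeR). Peg13, a non-coding RNA in an intron of Trappc9, had 56.3, 11.3 and 178 CPM against 134, 199 and 104 CPM, so that its 3 mutant libraries spread more widely than the groups were apart. The others not called were Plagl1 (0.59 ± 0.46), Copg2 (−0.74 ± 0.39) and Zrsr1 (−0.03 ± 0.58), in log2 fold change with its SE.

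The order of the levels differed with the library content. Levels scaled per kb of exon allow genes to be set side by side. In the 4 collagen-rich libraries the medians were led by H19 (1239 CPM per kb), Cdkn1c (245), Grb10 (92.5), Gnas (88.0) and Igf2 (76.5). In the 17 hypothalamic libraries they were led by Nap1l5 (909.7 CPM per kb, range 436 to 1178), Nnat (452, range 269 to 925) and Meg3 (308, range 219 to 455), followed by Gnas (128), Impact (123) and Peg3 (108). The ranges of Nap1l5 and Nnat overlap, and so do those of Nnat and Meg3, so these neighbours were not apart beyond their spread. H19 stood at place 1 in the collagen-rich libraries and at place 36 in the hypothalamic ones, and Nap1l5 at place 26 in the collagen-rich libraries and at place 1 in the hypothalamic ones. Among the hypothalamic libraries the imprinted genes that passed the filter had a median coefficient of variation of 26.5%, against 30.9% over 20828 genes. Grb10 (8.65%), Sgce (11.7%) and Asb4 (12.5%) varied least, and H19 (105.8%), Dio3 (97.5%), Mest (84.6%) and Slc22a18 (82.2%) most.

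Other imprinted genes and the imprint machinery were set beside them. Of 39 further genes reported as imprinted in mouse, 36 could be tested at ZT0, of which 8 were higher and 16 lower with a median log2 fold change of −0.94, led by Kcnk9, a potassium channel gene (−9.11 ± 0.38, SE, adjusted p = 3.25e-12, edgeR), and Magi2, a synaptic scaffold (−13.43 ± 0.56, SE). Of 21 genes that set or keep imprints, 19 could be tested, of which 5 were higher and 2 lower with a median of 0.15, led by Uhrf1, which guides maintenance methylation in dividing cells (3.98 ± 0.55, SE, adjusted p = 6.69e-06, edgeR), and Eed, a Polycomb subunit (1.73 ± 0.25, SE). Over all genes tested at ZT0, 22.7% were higher and 31.3% lower, with a median of −0.30. In the 8 comparisons among hypothalamic libraries, 0 genes of either list were called.

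Among the 17 hypothalamic libraries, where the mutant ZT6 group consists of replicates 1 and 4, no imprinted gene passed the test in any of 8 comparisons, and over all 21346 genes edgeR called 0 in each (0%). At an unadjusted p under 0.05 there were 0 imprinted genes for genotype at ZT6, after SD and over both, 4 for SD against ZT6 in controls, 1 for the same in mutants, 1 for ZT6 against ZT0 and 2 for SD against ZT0 in controls, and 1 for the interaction of genotype and SD. DESeq2 called 0 imprinted genes in each, and 1 to 33 genes in all. At that unadjusted p the counts over all genes were 566, 631, 768, 1318, 461, 694, 1561 and 530, in the order just given. The 3 imprinted genes with the smallest p are given for each comparison. The index numbers in the library titles fall into 3 runs, 1 to 4, 5 to 18 and 43 to 46, and log2 differences within a run are given where both groups have a library in it. With these runs as a covariate, added after the data were seen, 0 imprinted genes were called, and 3 genes in all after SD. At an unadjusted p under 0.05 that fit had 2, 4, 5, 7, 1, 4, 4 and 2 imprinted genes, and 905, 1959, 1702, 1952, 662, 1631, 2496 and 846 genes in all, in the same order. Without the 2 libraries labelled control that held 0 Snord116 counts, a choice made after the data were seen, edgeR called 0 imprinted genes and 0 genes in all in each comparison. At the unadjusted p there were then 4, 1, 4, 4, 1, 2, 2 and 2 imprinted genes, and 1496, 432, 1497, 1444, 535, 665, 908 and 707 genes in all. Between the 4 libraries of numbers 43 to 46 and the 13 others, Copg2 and Calcr had ranges without overlap, both lower there, which is 2 of 37 genes, against 7.35% of all genes (4.89% higher, 2.46% lower). Calcr had 17.2 to 23.2 CPM in those 4 and 27.1 to 42.3 CPM in the 13. Pituitary transcripts (5 genes) summed to 19740 CPM in mutant SD replicate 1, 1063 CPM in mutant SD replicate 4 and 619 CPM in control ZT6 replicate 1, with no more than 17.8 CPM in any of the other 14.

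**Figure D4:**
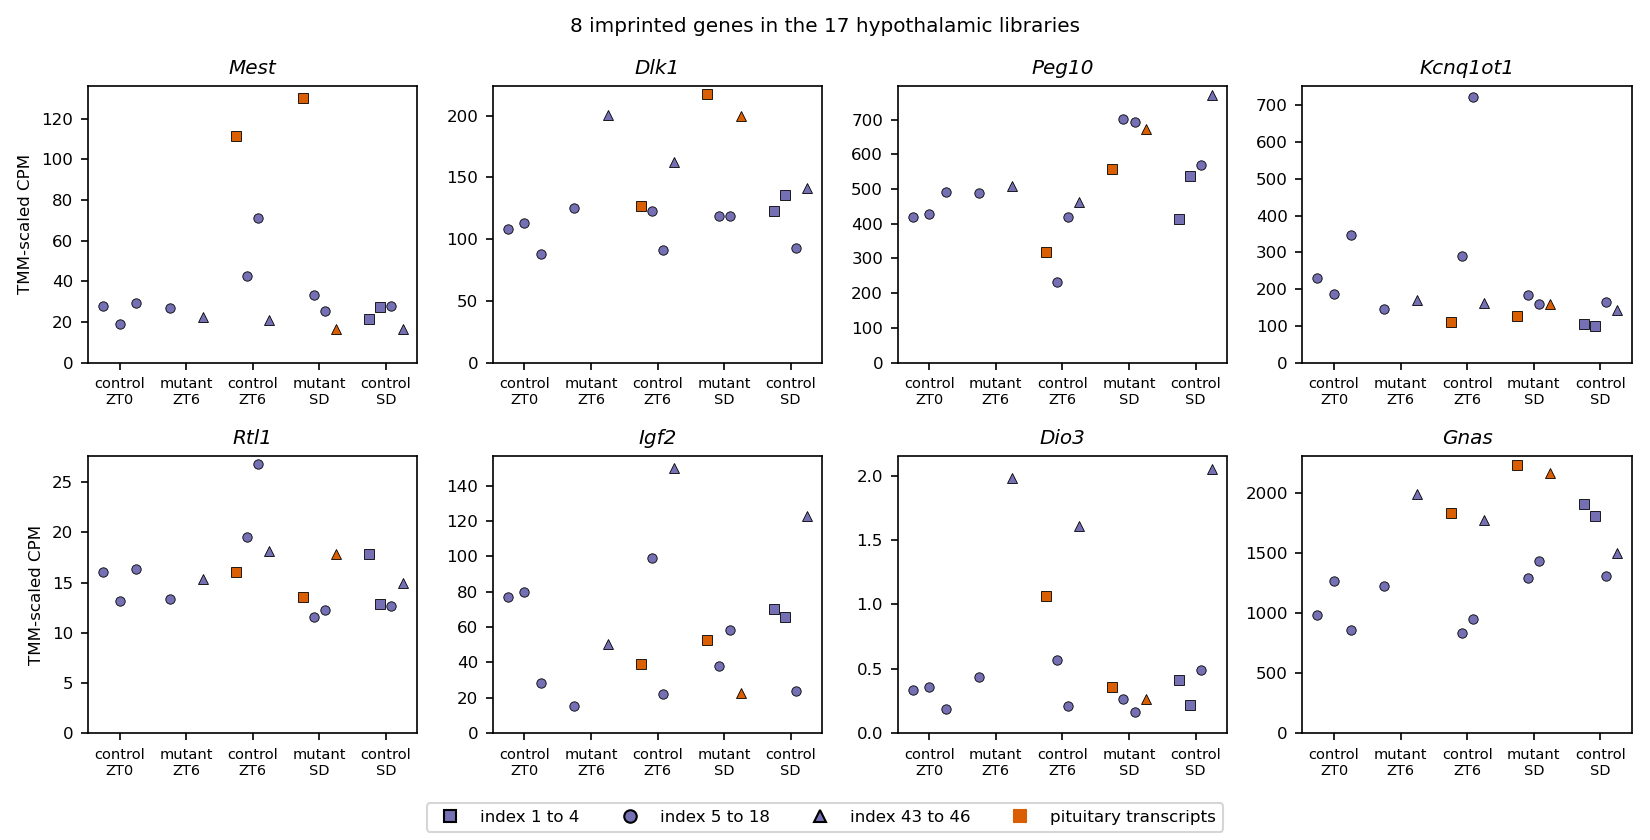
TMM-scaled CPM of 8 imprinted genes in each of the 17 hypothalamic libraries by group (horizontal axis); squares, circles and triangles mark the runs of index numbers, and orange points the 3 libraries with pituitary transcripts. The groups overlap for Mest and Igf2, and Mest is highest in 2 of the orange libraries (130.5 and 111.4 CPM). Gnas in control ZT0 (859 to 1266 CPM) lies below control SD (1310 to 1904 CPM) and mutant SD (1286 to 2231 CPM). Dlk1 in control ZT0 (87.9 to 112.8 CPM) lies below mutant ZT6 (124.8 to 200.7 CPM) and mutant SD (118.3 to 217.5 CPM).

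For SD against ZT6, Peg10, the retrotransposon-derived gene, was not called. Its difference had the same sign in both genotypes and in every run of index numbers that could be compared. Peg10 was named for its small p in these libraries, and the runs are parts of them, so this is no separate support. H13 had the same sign throughout too (0.12, 0.19 and 0.31 within the runs in controls, 0.060 and 0.081 in mutants). The share over all genes was not computed. In controls Peg10 had 414, 537, 570 and 770 CPM after SD and 319, 233, 419 and 463 CPM at ZT6, in replicate order, so the groups overlap at their edges. The highest value of each group, 770 and 463 CPM, belongs to a library labelled control with 0 Snord116 counts. The log2 fold change was 0.65 ± 0.22 (SE, unadjusted p = 0.0089, adjusted p = 0.699, edgeR), with differences of 0.56, 0.87 and 0.74 within the 3 runs. In mutants it had 558, 701, 694 and 673 CPM after SD and 489 and 510 CPM at ZT6, without overlap (log2 fold change 0.36 ± 0.27, SE, adjusted p = 1, edgeR), with 0.51 and 0.40 within the second and the third run. Kcnq1ot1 had 105.5, 100.5, 163.4 and 143.3 CPM after SD in controls and 111, 290, 722 and 162 CPM at ZT6. Control ZT6 replicate 3 stood highest. The log2 fold change of −1.38 ± 0.44 (SE, unadjusted p = 0.0061, adjusted p = 0.699, edgeR) was −0.55 without it, and −0.11, −1.48 and −0.18 within the runs. Mest had 21.2, 27.6, 27.9 and 16.5 CPM after SD in controls and 111.4, 42.4, 71.0 and 21.02 CPM at ZT6 (log2 fold change −1.44 ± 0.56, SE, adjusted p = 0.728, edgeR), with −2.20, −0.97 and −0.35 within the runs. The fourth gene at an unadjusted p under 0.05, Rtl1, chosen after its value was seen, had a log2 fold change of −0.50 ± 0.21 (SE, adjusted p = 0.732, edgeR), with −0.079, −0.85 and −0.28 within the runs.

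In mutants, Dio3 had 0.354, 0.268, 0.160 and 0.267 CPM after SD and 0.437 and 1.98 CPM at ZT6 (log2 fold change −2.22 ± 0.86, SE, adjusted p = 1, edgeR). It was −0.73 without mutant ZT6 replicate 4, the library at 1.98 CPM, −2.93 without mutant ZT6 replicate 1, and −0.80 and −2.50 within the second and the third run. Mest had 130.5, 33.1, 25.3 and 16.5 CPM after SD and 26.9 and 22.5 CPM at ZT6 (log2 fold change 1.04 ± 0.70, SE, adjusted p = 1, edgeR). Without mutant SD replicate 1, which held the most pituitary transcripts, the log2 fold change of Mest was −0.0099, and the differences within the second and the third run were 0.11 and −0.44. For the interaction of genotype and SD, Mest had a log2 difference of 2.48 ± 0.91 (SE, unadjusted p = 0.0153, adjusted p = 1, edgeR), 1.42 without mutant SD replicate 1 and 1.25 without the 3 libraries with pituitary transcripts. Kcnq1ot1 (1.33 ± 0.69) and Airn (1.25 ± 0.67) followed, in log2 difference with its SE, and Kcnq1ot1 was 0.51 without control ZT6 replicate 3.

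The 2 libraries labelled control that held 0 Snord116 counts enter the genotype comparisons as labelled. Between genotypes at ZT6, Rtl1 had 13.4 and 15.4 CPM in mutant libraries and 16.02, 19.6, 26.8 and 18.1 CPM in control libraries, without overlap (log2 fold change −0.52 ± 0.26, SE, adjusted p = 0.999, edgeR). It was −0.30 without control ZT6 replicate 3 and −0.57 without the 2 libraries. The differences were −0.77 in the second and −0.24 in the third run. Kcnq1ot1 (log2 fold change −1.07 ± 0.55, SE) was −0.23 without control ZT6 replicate 3 and −1.29 without the 2 libraries, with −1.65 and 0.080 within those runs. Mest (−1.35 ± 0.72, SE) was −0.92 without control ZT6 replicate 1 and −1.62 without the 2 libraries, with −1.03 and 0.095 within them. After SD, Dlk1 had 217.5, 118.3, 119.0 and 199.9 CPM in mutant libraries and 122.5, 135.3, 92.4 and 141.5 CPM in control libraries, with overlap (log2 fold change 0.39 ± 0.25, SE, adjusted p = 0.999, edgeR). Its 2 highest values are those of the mutant SD libraries with pituitary transcripts, and without the 3 such libraries the log2 fold change was −0.052. Without the 2 libraries at 0 Snord116 counts it was 0.50, and within the 3 runs it was 0.76, 0.36 and 0.50. Dio3 (−1.60 ± 0.76, SE) was −0.48 without control SD replicate 4, and likewise without the 2 libraries, with 0.16, −0.93 and −2.55 within the runs. Mest (1.13 ± 0.56, SE) was 0.091 without mutant SD replicate 1 and 1.01 without the 2 libraries, with 2.43, 0.053 and 0.0049 within the runs. Over ZT6 and SD together, Igf2 had 15.1 and 50.4 CPM at ZT6 and 52.7, 37.8, 58.3 and 22.9 CPM after SD in mutant libraries. Control libraries had 38.8, 98.8, 21.9 and 149.8 CPM at ZT6 and 70.3, 65.5, 23.7 and 122.8 CPM after SD. The groups overlap, with a log2 fold change of −0.999 ± 0.486 (SE, adjusted p = 0.942, edgeR), and of −0.66 without mutant ZT6 replicate 1 or −1.53 without mutant ZT6 replicate 4. It was −0.51 without the 2 libraries at 0 Snord116 counts, which held its 2 highest control values. Within runs, Igf2 differed by −1.62 and −1.57 at ZT6 in the second and the third, and by −0.36, 0.99 and −2.42 after SD in the 3 of them. Dlk1 (0.37 ± 0.20) and Rtl1 (−0.31 ± 0.16) followed, in log2 fold change with its SE, and were 0.50 and −0.31 without those 2 libraries.

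Across time in controls, Commd1 had 25.1, 50.4, 16.5 and 25.6 CPM at ZT6 and 20.2, 15.7 and 19.1 CPM at ZT0, with overlap (log2 fold change 0.70 ± 0.32, SE, adjusted p = 0.960, edgeR), or 0.28 without control ZT6 replicate 2. Mest (1.29 ± 0.61) and Slc22a18 (1.61 ± 0.79) followed, in log2 fold change with its SE. Mest was 0.85 without control ZT6 replicate 1, and Slc22a18 was 0.64 without control ZT6 replicate 2 and 2.38 without control ZT0 replicate 2. After SD, Commd1 had 26.7, 22.9, 29.6 and 50.1 CPM, above every ZT0 control library (log2 fold change 0.81 ± 0.33, SE, adjusted p = 0.644, edgeR), or 0.49 without control SD replicate 4. All 3 ZT0 control libraries belong to the second run of index numbers, where the differences of Commd1 were 0.66 for ZT6 and 0.69 for SD, and those of Mest and Slc22a18 at ZT6 were 1.13 and 1.17. Gnas had 1904, 1809, 1310 and 1502 CPM after SD and 981, 1266 and 859 CPM at ZT0, without overlap (log2 fold change 0.64 ± 0.32, SE, adjusted p = 0.644, edgeR), or 0.36 within the second run and 0.057 with the runs as a covariate. Kcnq1ot1 was −1.01 ± 0.46 (SE) in the same comparison, or −0.59 within that run. These comparisons share their control libraries, so their values are not independent of one another.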

How the data were processed

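Gene-level RNA abundance was measured in 22 hypothalamus libraries. The authors deposited estimated counts per gene, rounded to whole numbers: per the labels' protocols, reads of polyadenylated RNA (TruSeq libraries of Trizol-extracted RNA) were trimmed with Trimmomatic 0.38, assigned to Ensembl transcripts by kallisto 0.44.0 and summarised per gene by tximport. From these, TMM-scaled CPM were computed over 21 libraries, and edgeR 4.0.16 (R 4.3.3) quasi-likelihood tests were run after filterByExpr (minimum count 10, minimum total 15), with Benjamini-Hochberg adjustment over all genes. SE is the absolute log2 fold change divided by the square root of F. One fit used 17 hypothalamic libraries in 5 groups for 8 comparisons, and another used 20 libraries (without mutant ZT6 replicates 2 and 3) for genotype at ZT0. The test was tried on simulated counts with known changes. Alternatives were DESeq2 1.42.0, RLE factors, no filter, other library sets and leaving out each library. Gene positions came from GENCODE M21 (GRCm38), which held 41279 of 41456 IDs after 5 repeated lines were dropped. Intervals and the limit that a count of 0 allows (3 counts) cover counting error only.

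The imprinted genes, the other lists and the markers were chosen with earlier results of these data known. Values per library are given for genes called, for reciprocal neighbours and for Cdkn1c, Gnas, Nnat and Grb10. Where under 5 genes were called, the 3 with the smallest p are named, and further genes of a locus are given for completeness.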

Additional observations from a re-analysis of the deposited data

Results flagged for a closer look

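In groups of 4 hypothalamic libraries, 11 of 111 gene and group sets (9.91%) had 1 library far from the other 3, by Dixon's test at the 95% level, where chance flags about 1 in 20. Control SD replicate 4 held 3 of them. Cdkn1c was at 20.3 CPM there against 4.30 to 6.29 CPM in the other 3 libraries, H19 at 5.51 CPM against 0.122 to 0.386 CPM, and Dio3 at 2.05 CPM against 0.221 to 0.487 CPM. In control ZT6 replicate 4, H19 was at 4.69 CPM against 0.523 to 0.948 CPM, and Calcr at 19.01 CPM against 27.1 to 27.5 CPM. Both libraries have index numbers in the run 43 to 46 and held 0 Snord116 counts. Collagens were higher in them too: Col1a1 was at 34.0 CPM in control SD replicate 4 against 2.52 to 7.83 CPM in the other 3 control SD libraries, and Col3a1 at 27.9 CPM against 2.52 to 5.76 CPM. In control ZT6 replicate 4, Col1a1 was at 21.7 CPM against 3.58 to 12.5 CPM in the other 3 control ZT6 libraries, and Col3a1 at 24.97 CPM against 2.56 to 9.96 CPM. The sum of the 6 fibroblast and meninges genes was 177.8 CPM against 90.2 to 123.7 CPM after SD, and 195.9 CPM against 100.6 to 138.4 CPM at ZT6. Not all genes of that list followed. In control SD replicate 4, Pdgfra was at 42.0 CPM against 55.3 to 66.5 CPM, and Lum and Pdgfrb lay within the range of the others. In control ZT6 replicate 4, Lum lay within (2.34 CPM against 1.14 to 7.25 CPM), and Pdgfrb above (28.25 CPM against 14.8 to 23.85 CPM). The highest sum of the 17, 335.3 CPM, was that of control ZT0 replicate 2, with H19 at 1.51 CPM and Cdkn1c at 4.64 CPM. The part of these genes in the flagged values was not tested. The run 43 to 46 also holds mutant ZT6 replicate 4 and mutant SD replicate 4. In that order, H19 was at 3.22 and 2.51 CPM, Dio3 at 1.98 and 0.267 CPM and Cdkn1c at 9.30 and 7.38 CPM. Calcr was at 23.2 and 22.25 CPM there, and Col1a1 at 14.8 and 10.3 CPM. The medians over the run were 3.95 CPM for H19 and 10.5 CPM for Cdkn1c, against 0.523 and 4.39 CPM in the 13 others. The ranges of both genes overlap. In mutant SD replicate 1, the library with the most pituitary transcripts, Nnat was at 1691 CPM against 635.5 to 789.8 CPM and Mest at 130.5 CPM against 16.5 to 33.1 CPM. The remaining ones were Rasgrf1 in mutant SD replicate 4 (578 CPM against 382 to 409 CPM), Asb4 in control SD replicate 1 (50.6 CPM against 62.0 to 63.9 CPM), Inpp5f in control SD replicate 3 (264 CPM against 154 to 172 CPM) and Impact in control ZT6 replicate 3 (724.5 CPM against 527 to 557 CPM).

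Mutant ZT6 replicate 2, with 7348 counts over 2149 genes, entered no main comparison, only the alternative with all 22 libraries. Of the 40 imprinted genes 14 had a count there. Peg13, the non-coding RNA in the Trappc9 intron, had 491 counts and ranked 1 among all genes, with 6.68% of the library (95% Wilson interval 6.13% to 7.28%), or 66820 CPM by library total, against at most 361 CPM in the other 21 libraries. Asb4 had 4 counts and Sgce 3 counts, each above its share elsewhere and near the 3 counts that a count of 0 allows.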

How the results depend on the processing

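At ZT0, 23 to 29 imprinted genes were called under the alternatives, against 26 of 37 in the main fit. Leaving out each ZT0 library gave 25 to 29, beside 10422 to 11382 of all genes. The main fit called 11725 of all 21746 genes (53.9%). Without the low-count filter more genes were tested, so the 37 are those of the main fit at ZT0. For the genes named there, 298 recomputed values kept their sign and their side of the threshold, 14 lost their call and 0 reversed. Calls were lost by Trappc9 without the low-count filter, by Trappc9, Sgce and Blcap with all 22 libraries, by Trappc9, Rtl1 and Cobl with the 6 ZT0 libraries alone, and by Trappc9 and Sgce with changes over 2-fold only. Without mutant replicate 1, Dlk1, Copg2, Plagl1 and Dio3 were called, Dio3 also without mutant replicate 2 and by DESeq2 (adjusted p = 0.0404), and Peg13 without mutant replicate 3 (log2 fold change −2.10, adjusted p = 0.00804, edgeR).

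In the other 8 comparisons 447 values kept their sign and side and 3 reversed. The log2 fold change of Dlk1 after SD was −0.052 without the 3 libraries with pituitary transcripts. That of Igf2 over ZT6 and SD was 0.066 with all 22 libraries. That of Mest for SD against ZT6 in mutants lay between −0.0099 and 1.32 when each library was left out, the lowest without mutant SD replicate 1. With all 22 libraries 1 imprinted gene was called for SD against ZT6 in mutants, H19 (log2 fold change −9.43, adjusted p = 0.0499, edgeR), in a comparison that then also holds the collagen-rich mutant ZT6 replicate 3 and mutant ZT6 replicate 2 with its 7348 counts. Over all genes, where edgeR called 0, that setting called 173 in this comparison, and DESeq2 called 15 for genotype at ZT6, 1 after SD and 5 over both, 18 for SD against ZT6 in controls and 16 in mutants, 23 for ZT6 and 33 for SD against ZT0, and 8 for the interaction. The remaining alternatives called 0 to 3 genes. The causes were not tested.

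No paired analysis was possible because the replicates were numbered in accession order and the labels tie no library to another. Depth limits the comparison of low genes in mutant ZT0 replicate 3, the shallowest library compared, where a count of 0 allows up to 0.961 CPM. Slc22a18, Dio3 and Airn lie near that level in several libraries.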
